A study of Mus musculus with 7 samples.

Results

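The genes described are those of the cytosolic ribosomal proteins, the proteins that with ribosomal RNA form the large (60S) and small (40S) subunits of the ribosome. Members were taken from the deposited gene table by symbol: Rpl or Rps with a number, Rplp0 to Rplp2 or Rpsa, where the gene was also in the authors' filtered table, and with rows named -ps, the mouse symbol for pseudogenes, left out. The pattern found 89 rows among 56691 genes, and 84 of these were in the filtered table, 50 of the large and 34 of the small subunit. They were measured in skin of 7 mice: 3 knockout mice (2, 3 and 4), whose skin is described as healthy looking, and 4 wild-type mice (5, 6, 7 and 8). The knocked-out gene, as the title of the study gives it, is that of tuftelin 1, a protein associated with desmosomes. Strain, age and the deleted part of the gene are not given in the sources used here. Libraries were made with the QuantSeq kit, which reads 1 stretch near the 3′ end of each polyadenylated transcript, so that levels in CPM (counts scaled to a fixed library size) can be set side by side between genes without dividing by length.

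Every growing cell builds its ribosomes from equal numbers of nearly all these proteins, and surplus copies that find no place in a subunit are destroyed. The mRNAs of ribosomal proteins carry a run of pyrimidines at the very 5′ end, the 5′ TOP motif, through which their translation is controlled as a group by the growth regulator mTOR. In skin, ribosome supply is known for its tie to pigment and epidermis: mice with less Rps19 or Rps20 have dark footpads, and free Rpl5 and Rpl11 hold the p53 inhibitor Mdm2 when ribosome assembly fails.

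To show the pyrimidine run where it is annotated, start sites were read from RefSeq promoters (GRCm38.p6, 250 bases before and 50 after a start), which were found for 62 of the 84 genes. The run was taken as a C at the start followed by at least 4 more C or T, on the strand of the gene. Below are 20 bases before the start and the first 10 of the transcript. Shown are the 6 with the highest levels among the 14 members of which this held. Rps6, the target of the S6 kinases, and Rpl32l, the member with the lowest level, are shown as well. Capitals mark the run of C and T that begins at the annotated start, and coordinates are those of GRCm38.p6, not the build of the counts.
Rps21, chr2:180257359-180257388, plus strand: gcacttaccgaggacccgccCTCCTgccca
Rps15a, chr7:118116138-118116167, minus strand: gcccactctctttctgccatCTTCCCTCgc
Rplp2, chr7:141447631-141447660, plus strand: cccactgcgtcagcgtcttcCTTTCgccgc
Rpl38, chr11:114668560-114668589, plus strand: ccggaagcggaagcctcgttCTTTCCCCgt
Rps18, chr17:33955656-33955685, minus strand: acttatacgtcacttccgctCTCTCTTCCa
Rps27, chr3:90213639-90213668, minus strand: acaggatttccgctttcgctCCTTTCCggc
Rps6, chr4:86857358-86857387, minus strand: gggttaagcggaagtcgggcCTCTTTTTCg
Rpl32l, chr10:20208419-20208448, plus strand: taataaaataaaatgaccagCTTCTTCCTT
The runs differ in length, from 5 bases in Rps21 and Rplp2 to 10 in Rpl32l. Such a start was annotated in 14 of 74 promoters of members (18.9%) and in 2.51% of all 32851 promoters of the table. Since annotated starts can be a few bases off, the run was also sought within 25 bases of the annotated start. It was then found in 81.1% of the members' promoters and 55.6% of all. A wider search finds more such runs in any promoter, and the part of misplaced starts was not tested. The 7 letters CTCTTTC, which satisfy the same criterion, were within 25 bases of the start on the strand of the gene in 9.46% against 0.691% of promoters. CCGGAAG on either strand, the core letters that ETS family factors bind, lay in the 300 bases of 36.5% of the members' promoters and 8.86% of all. TATAAA lay within the 40 bases upstream in 1.35% against 2.31%. The 14 members with a run at the annotated start had a median level of 159 CPM and a median log2 fold change of -0.11, and the 48 others with a promoter 360.0 CPM and -0.09.

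Libraries held 7009237 to 9256459 counts. Keratinocyte markers (11 of 11 in the table) and dermal fibroblast markers (8 of 8) had counts in every mouse, with summed shares of 1.56% to 2.02% and 1.30% to 3.42% of counts. Tuft1, which checks the labels, stood at 22.1 CPM on average in knockout and 94.9 CPM in the wild type. Some marker lists moved with the groups or stood apart in 1 library. Fat cell markers (10 genes, all with counts in every mouse) summed to 0.889% to 1.02% of counts in knockout and 1.40% to 2.23% in wild-type mice, and immediate early genes (14 genes) to 0.152% to 0.189% and 0.173% to 0.603%. Skeletal muscle markers (14 genes) made up 1.87% to 3.13% and 1.73% to 2.31%. Hair shaft genes (59 of 72 with counts) took 0.158% of the counts of knockout mouse 2 and at most 0.00838% of any other library. Dermal fibroblast markers were highest in knockout mouse 2, at 3.42% against at most 2.10% elsewhere. Melanocyte markers (6 of 7 with counts, 2 in every mouse, Tyr at 0 in all) summed to 0.00720% to 0.0103% in knockout and 0.000376% to 0.00654% in wild-type mice. With muscle and hair shaft markers taken out of the total, the share of ribosomal protein genes described next was 4.51% to 5.36% in knockout and 4.09% to 5.45% in wild-type mice, and the part of the other lists in the results was not tested. In whole skin fewer cells of a type cannot be told apart from less RNA per cell.

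Ribosomal protein genes took, on average, the same share of the counts in both genotypes. The 84 genes made up 4.71%, 4.39% and 5.19% of the counts of knockout mice 2, 3 and 4, and 5.04%, 5.34%, 4.65% and 4.00% of those of wild-type mice 5, 6, 7 and 8. The knockout values lay inside the wild-type range, and both the highest and the lowest share came from wild-type mice. The means were 4.76% ± 0.402 (SD, n = 3) and 4.76% ± 0.580 (SD, n = 4), a difference of 0.00527 percentage points, far below the spread between mice. Exact 95% binomial intervals cover counting error alone, with each count taken as independent. No molecular tags are mentioned for these reads, so the intervals may be too narrow even for that error. They were 3.99% to 4.01% in wild-type mouse 8 and 5.33% to 5.36% in wild-type mouse 6, narrow beside the spread between mice.

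**Figure D1:**
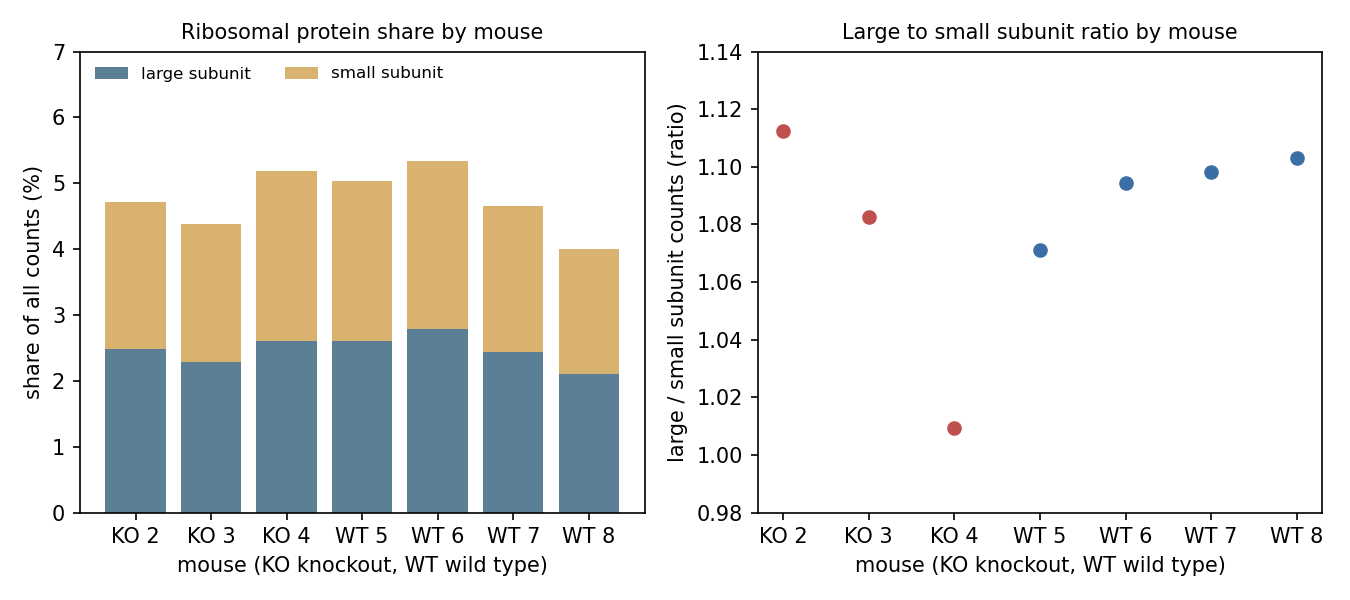
Share of all counts (%) held by large and small subunit genes in each mouse (left, stacked bars), and the ratio of large to small subunit counts (right, points, axis not from 0). Shares run from 4.00% in wild-type mouse 8 to 5.34% in wild-type mouse 6, and knockout mouse 4 has the lowest ratio, at 1.01.

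The order of the mice by this share ran with other parts of the libraries. The 3 mice with the highest shares, 6, 4 and 5, also had the highest shares of keratinocyte markers (2.01%, 1.98% and 2.02%), and wild-type mouse 8 was lowest in both (1.56%). The same 3 mice had the lowest shares of mitochondrially encoded transcripts, at 12.3%, 12.4% and 15.6%, against 15.7% to 21.6% in the other 4 mice. Mitochondrial counts are part of the total. With the total taken without them, the ribosomal protein share was 5.37% to 5.92% in knockout and 4.97% to 6.10% in wild-type mice, and the knockout values again lay inside the wild-type range.

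Summed counts of the 50 large subunit genes were close to those of the 34 small subunit genes in every library. Per gene, the median level was 307 CPM in the large and 470 CPM in the small subunit. Large subunit genes took 2.48%, 2.28% and 2.61% of the counts of knockout mice 2, 3 and 4 and 2.61%, 2.79%, 2.43% and 2.10% of those of wild-type mice 5, 6, 7 and 8. Small subunit genes took 2.23%, 2.11% and 2.58% in knockout and 2.43%, 2.55%, 2.22% and 1.90% in wild-type mice. The ratio of the sums was 1.11, 1.08 and 1.01 in knockout mice 2, 3 and 4 and lay between 1.07 and 1.10 in the 4 wild-type mice. Knockout skin thus held both the highest value (mouse 2) and the lowest (mouse 4), with means of 1.07 ± 0.0531 (SD, n = 3) and 1.09 ± 0.0142 (SD, n = 4). Mouse 4 was also lowest without the 3 members of most counts, at 1.13 against 1.20 to 1.32 in the other 6 mice. Mouse 2 then stood at 1.26, inside the wild-type range, and wild-type mouse 7 was highest. Of the small subunit genes 9 of 34 had their highest level in mouse 4, and of the large subunit genes 3 of 50.

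No ribosomal protein gene was called as different between the genotypes. The fit ran over all 12888 genes with enough counts, all 84 members among them, in edgeR's quasi-likelihood test with Benjamini-Hochberg adjustment, and 0 of 84 had an adjusted p below 0.05. The background was 3 of 12888 genes, or 0.0233%. At an unadjusted p below 0.05 the count was again 0 of 84, where 4.31% of all genes passed. Tuft1, the knocked-out gene, was not called by edgeR's quasi-likelihood test either. Its adjusted p was 0.172, although its groups did not overlap and its log2 fold change stood at -2.10. The lack of calls among members therefore does not show that their levels were equal. DESeq2's Wald test called 0 of 84 against 0.954% of all genes, limma-voom 0 of 84 against 0.171%, and edgeR with no filter on low counts 0 of 84 against 0.397%. Unadjusted p-values below 0.05 were given by DESeq2 to 3 members, Rps19 and Rpl19 among them, against 7.39% of all genes, by limma-voom to 1 (Rps19) against 6.56%, and by the unfiltered edgeR fit to 1 against 4.03%. The smallest adjusted p of any member under any setting was 0.551. In 0 of 84 members did the 3 knockout values all lie above or all below the 4 wild-type values, against 6.89% of all genes, and against 10.4% of the genes at 100 CPM or more, where 66 of the members stood.

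The fitted changes were small, and so were their standard errors. The log2 fold change of knockout over wild type had a median of -0.09 over the 84 members, -0.09 over the 50 large and -0.09 over the 34 small subunit genes, beside -0.01 over all genes tested. It was below 0 in 55 members and above 0 in 29, where 50.5% of all genes were below 0. A change of more than 1 on the log2 scale was fitted for 2 of 84 members, Rpl19 and Rps4l, against 22.5% of all genes. In 77 members the value lay within 0.5 of 0, as it did for 52.5% of all genes. The median standard error was 0.24 for members and 0.84 for all genes. At 100 CPM or more the members were closer to other genes. The 66 members there had a median change of -0.07 and a median standard error of 0.22, and the 1628 other genes -0.04 and 0.27. Below 0 were 41 of these 66 members and 905 of the 1628 other genes. The 18 members under 100 CPM had a median of -0.41, with 14 below 0 and a median standard error of 0.72. The 11176 other genes under 100 CPM had a median of 0.0058, with 5554 below 0 and a median standard error of 1.05.

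**Figure D2:**
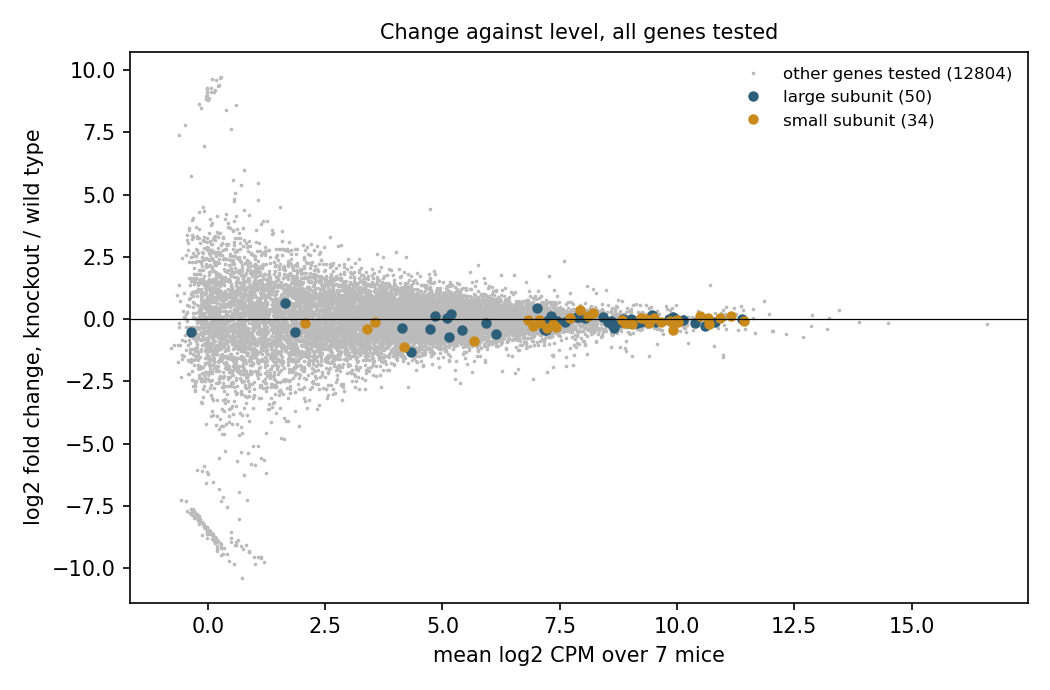
Log2 fold change of knockout over wild type (vertical) against mean log2 CPM over 7 mice (horizontal) for 12888 genes, with large and small subunit genes in colour. The members lie at the high end of expression near 0, and those with changes over 1 in size, Rpl19 and Rps4l, are among the few at low level.

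The highest and lowest levels of single members were spread unevenly over the mice of both genotypes. Wild-type mouse 6 had the highest level of 28 of the 84 genes, and wild-type mouse 8 of 2. Knockout mouse 3 had the lowest level of 24, wild-type mouse 8 of 18 and knockout mouse 4 of 16, while knockout mouse 2 and wild-type mouse 5 were lowest for 2 each. Among wild-type mice the log2 level had a median SD of 0.33 over members and 0.82 over all genes, and of 0.26 for the members at 100 CPM or more, against 0.31 for other genes at that level. The order of the genes was nearly the same in each mouse, with Spearman's rho of 0.970 to 0.989 across the 84 genes in the 21 pairs of mice, where genes are not independent replicates.

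The level differed 2576-fold between members, and 571-fold with the paralogues and Rps3a3 left out, where Rpl23a was lowest. These folds are of counts assigned to each gene and need not be those of the mRNAs. Rpl23a rested on 294 counts over all mice, and its exons overlap those of Tlcd1. The mean over the 7 mice ran from 1.07 CPM for Rpl32l to 2764 CPM for Rps12, with a median of 360.0 CPM, against 21.6 CPM for all genes tested. Of the 100 genes with the highest mean level in skin 19 were members, and of the first 500, 47. The first 10 members held 40.7% and the first 20 held 62.6% of the counts of all members.

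**Figure D3:**
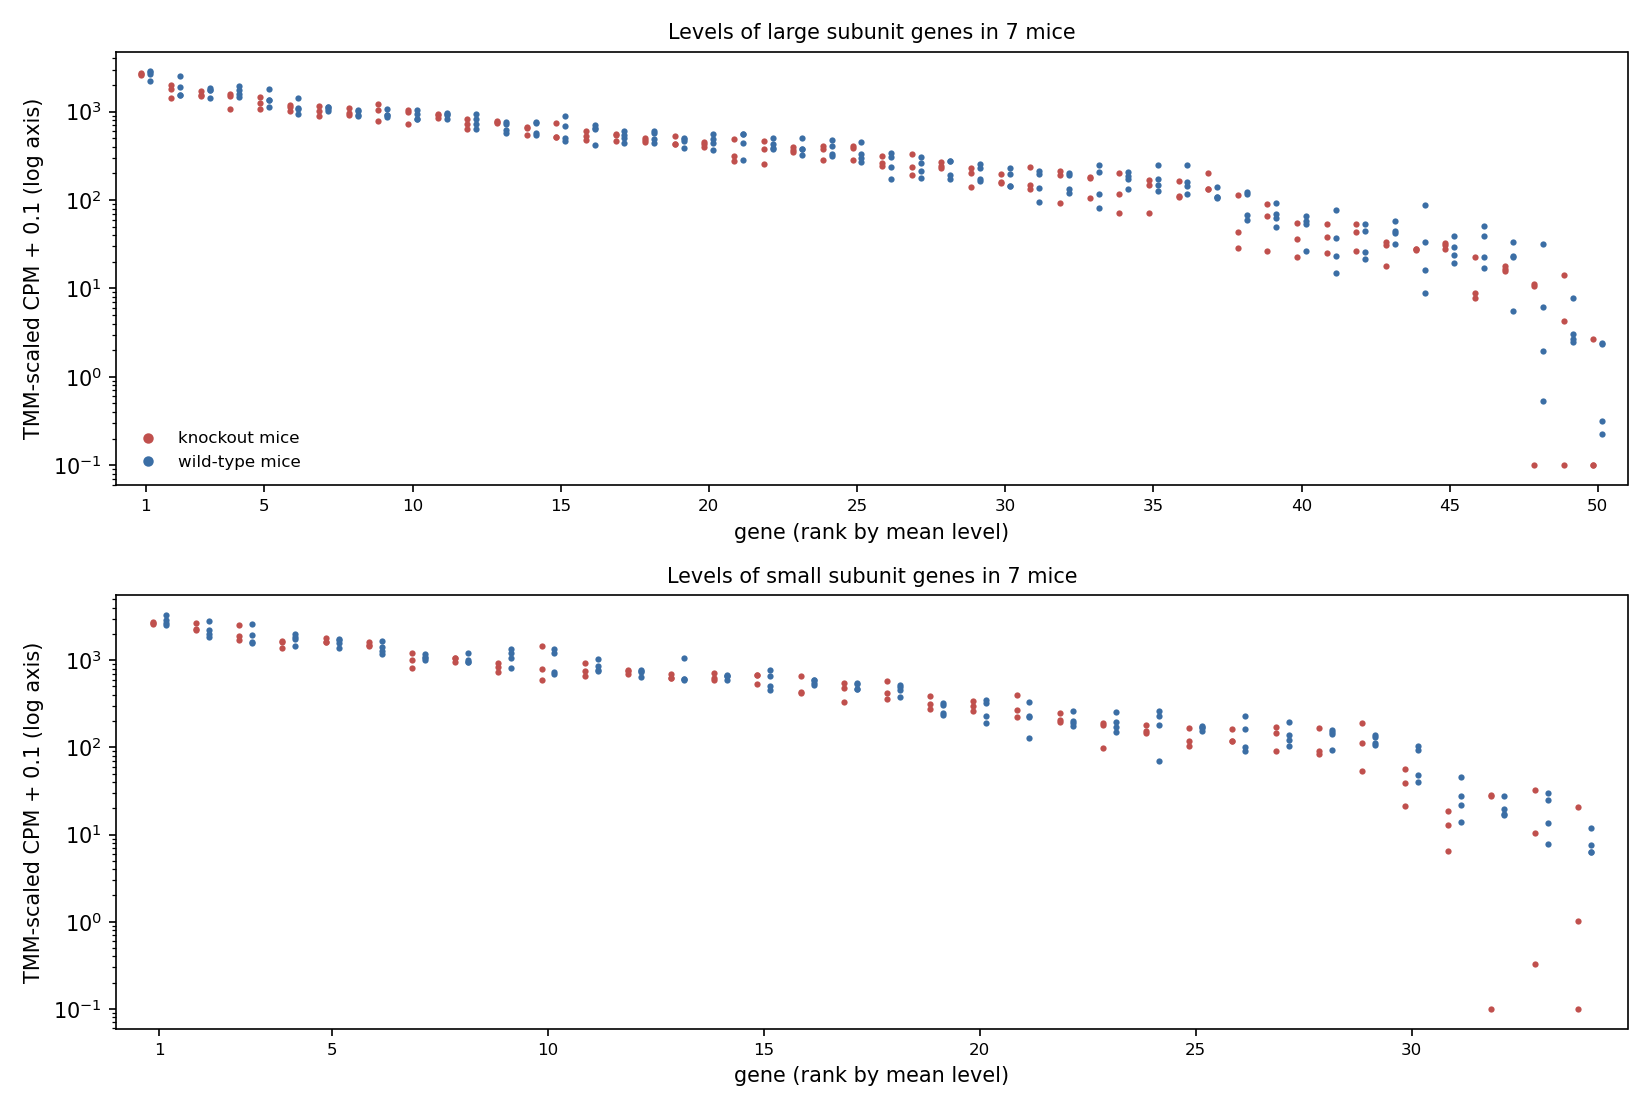
Level of every large (top) and small (bottom) subunit gene in each mouse, in TMM-scaled CPM plus 0.1 on a log axis, ordered by rank of mean level, with knockout and wild-type mice in 2 colours. The 2 colours overlap in each of the 84 genes, while the genes span 1.07 to 2764 CPM.

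The highest level in the small subunit was that of Rps12, a component of the 40S head (ENSMUSG00000061983.8, minus strand of chromosome 10, 23661081 to 23663173, mm39). Its level was 2589, 2688 and 2730.0 CPM in knockout mice 2, 3 and 4, against 2855, 2653, 3303 and 2527 CPM in the wild-type mice 5, 6, 7 and 8. All 3 knockout values lay inside the wild-type range, with a log2 fold change of -0.09 (SE 0.18). Rps20, a 40S protein whose mouse mutants have dark skin, had 2216, 2696 and 2249.8 CPM in knockout and 2197, 1835, 2782 and 1996 CPM in the wild type. Its groups overlapped, with the highest and the lowest level both in wild-type skin (mice 7 and 6), and a log2 fold change of 0.12 (SE 0.20). Rps26, which lies at the mRNA exit channel, had 1889, 1689.8 and 2515 CPM and 1921, 2635, 1617 and 1588 CPM in the same order. It was high in 1 mouse of each genotype, knockout mouse 4 and wild-type mouse 6. Rps24 had 1641, 1620.0 and 1381 CPM in knockout and 1840.5, 1751, 1980.2 and 1438 CPM in the wild type, with wild-type mouse 8 among the knockout values (log2 fold change -0.18, SE 0.19).

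In the large subunit Rplp1, an acidic protein of the stalk that calls elongation factors to the ribosome, had the highest level (ENSMUSG00000007892.9, minus strand of chromosome 9, 61820566 to 61821824, mm39). Its level was 2757, 2612 and 2696 CPM in knockout mice 2, 3 and 4 and 2679, 2872, 2828 and 2242 CPM in the wild-type mice 5, 6, 7 and 8. Means of 2688 ± 72.9 CPM (SD, n = 3) and 2655 ± 288 CPM (SD, n = 4) gave a log2 fold change of 0.02 (SE 0.18). The other stalk proteins, chosen after their values were seen, stood lower: Rplp2, the partner of Rplp1, at a mean of 615 CPM and Rplp0, which anchors both to the rRNA, at 418 CPM. Their log2 fold changes were -0.11 (SE 0.26) and -0.36 (SE 0.28). Rpl37, a small protein bound to 28S rRNA, had 1795, 1420.1 and 1994 CPM in knockout and 1559, 2555, 1903 and 1546 CPM in the wild type, with wild-type mouse 6 highest and knockout mouse 3 lowest. Rpl4, which lines the exit tunnel, had 1497, 1597 and 1059 CPM and 1739, 1596, 1962 and 1468 CPM. Knockout mouse 4 was lowest and knockout mice 2 and 3 lay inside the wild-type range (log2 fold change -0.29, SE 0.20).

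The members at 1000 CPM or more were 15. Beside those just given they included Rpl11, Rpl13, Rpl31 and Rpl7 of the large and Rps21, Rps29 and Rps3 of the small subunit. Another 51 stood from 100 to under 1000 CPM. They included, in the large subunit, Rpl8, Rpl23, Rpl34, Rpl22, Rpl36a, Rpl12, Rpl17, Rplp2, Rpl21, Rpl26, Rpl38, Rpl27, Rplp0, Rpl30, Rpl9, Rpl39, Rpl37a, Rpl3, Rpl41, Rpl18, Rpl36, Rpl27a, Rpl7a, Rpl28, Rpl6, Rpl5, Rpl14, Rpl32 and Rpl3l, and in the small subunit Rps19, Rps14, Rps13, Rps28, Rps15a, Rps15, Rps7, Rps18, Rpsa, Rps27, Rps9, Rps2, Rps3a1, Rps27a, Rps16, Rps25, Rps4x, Rps23 and Rps27l. The remaining 18, 13 of the large and 5 of the small subunit, were under 100 CPM and included Rpl10, Rpl35a, Rpl35, Rpl29, Rpl7l1, Rpl15, Rpl10a, Rpl13a, Rpl19, Rpl22l1, Rpl39l, Rpl23a, Rpl32l, Rps4l, Rps10, Rps6 and Rps3a3. Of these, 7 were under 20 CPM.

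Among the members with the smallest p in the direction of lower levels in knockout skin were Rps19, Rpl19 and Rps16, and none of them was called. Rps19, a 40S protein needed to mature the small subunit, had 921, 831 and 734 CPM in knockout mice 2, 3 and 4 and 1340.4, 1210.0, 1073 and 816 CPM in the wild-type mice 5, 6, 7 and 8. Only wild-type mouse 8 fell among the knockout values, below mice 2 and 3. The means were 829 ± 93.5 CPM (SD, n = 3) and 1109.8 ± 224 CPM (SD, n = 4), with a log2 fold change of -0.42 (SE 0.21). By edgeR's quasi-likelihood test the unadjusted p was 0.0697, and after adjustment over all genes 0.9997. Rpl19, which forms a bridge between the subunits, had 22.5, 8.85 and 7.63 CPM in knockout and 22.8, 16.8, 39.5 and 50.2 CPM in the wild type. Knockout mouse 2 lay between wild-type mice 5 and 6, and the log2 fold change was -1.31 (SE 0.73). Rps16, a protein of the 40S head, was at 165, 105 and 119 CPM in knockout and at a narrow 166, 173, 174 and 156 CPM in the wild type. Knockout mice 3 and 4 lay below all 4 wild-type mice and knockout mouse 2 lay among them (log2 fold change -0.37, SE 0.24). Without knockout mouse 2 the values were -0.58 for Rps16 and -1.97 for Rpl19, and without knockout mouse 3 Rps16 was at -0.24.

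Those with the smallest p in the other direction were Rpl3l, Rps9, Rpsa and Rpl12, again with none called. Rps9, which helps the ribosome read codons accurately, had 225, 269.8 and 399.6 CPM in knockout and 221, 334, 229.9 and 128 CPM in the wild type, with wild-type mouse 8 lowest and a log2 fold change of 0.38 (SE 0.31). Rpsa, which is also known as the laminin receptor precursor, had 313, 274 and 388 CPM and 305, 321, 245 and 237 CPM (log2 fold change 0.23, SE 0.22). In both genes knockout mouse 4 held the highest value and the other knockout mice lay inside the wild-type range. Without knockout mouse 4 the log2 fold changes were 0.11 for Rps9 and 0.0793 for Rpsa, and without wild-type mouse 6 that of Rps9 was 0.62. Rpl12, a protein at the base of the stalk, was nearly level in knockout mice at 761, 783 and 752 CPM and had 770.4, 579, 717 and 617 CPM in the wild type. Wild-type mouse 5 fell among the knockout values (log2 fold change 0.19, SE 0.19).

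Rpl5 and Rpl11, which with 5S rRNA form the particle that binds Mdm2, stood far apart in level. Rpl11 had 1696, 1513 and 1553 CPM in knockout mice 2, 3 and 4 and 1749, 1856, 1768 and 1440.0 CPM in the wild-type mice 5, 6, 7 and 8, with a log2 fold change of -0.10 (SE 0.18). Rpl5 had 204, 71.8 and 115 CPM and 209, 185, 133 and 172 CPM in the same order. Knockout mice 3 and 4 lay below all wild-type mice and knockout mouse 2 lay near the highest, and the log2 fold change was -0.43 (SE 0.33). It was -0.91 without knockout mouse 2 and -0.13 without knockout mouse 3. The Rpl5 row shares 953 bases of exon on mm39 with Dipk1a, so that reads there could be assigned to either gene.

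Of the other members known from mouse mutants, Rpl38, whose loss changes the pattern of the skeleton, had 436, 529 and 431 CPM in knockout and 466, 392, 506 and 494 CPM in the wild type. The values of both genotypes mixed along the whole range, with a log2 fold change of 0.00 (SE 0.20). Rpl27a had 197, 159.5 and 155 CPM and 233, 194, 144 and 142 CPM, with wild-type mice at both ends (log2 fold change -0.07, SE 0.25). In people, loss of 1 copy of RPS19, RPL5, RPL11, RPS26, RPS24, RPS7, RPS10 or RPL35A causes Diamond-Blackfan anaemia. The mouse genes Rps7 and Rpl35a, chosen after their values were seen, had log2 fold changes of -0.15 (SE 0.22) and -0.16 (SE 0.42), with overlapping groups in each.

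Paralogues of ribosomal proteins, whose symbols end in l or l1, took a small part of the counts of most pairs, and a large part in 2 of 7. Rpl3l, which takes the place of Rpl3 in striated muscle, held 33% of the counts of the pair over all mice, with 33.3%, 35.5% and 39.6% in knockout mice 2, 3 and 4 and 30.7%, 24.2%, 31.4% and 38.6% in wild-type mice 5, 6, 7 and 8. Its level was 132, 134 and 205 CPM in knockout and 104, 109, 141 and 108 CPM in the wild type. Wild-type mouse 7 lay above knockout mice 2 and 3, and the other 3 wild-type mice lay below all knockout mice (log2 fold change 0.44, SE 0.26, and 0.20 without knockout mouse 4). Skeletal muscle markers, 13 of 14 of which had counts in every mouse, summed to 1.87%, 2.65% and 3.13% of the counts of knockout mice 2, 3 and 4 and 1.90%, 1.88%, 1.73% and 2.31% of those of wild-type mice 5, 6, 7 and 8. Knockout mouse 4 was highest in both Rpl3l and the muscle markers, and wild-type mouse 7 was second in Rpl3l and lowest in the muscle markers. The part of muscle in the Rpl3l level was not tested. Rpl3 itself, at the peptidyl transferase centre, had 265, 244 and 312 CPM and 235, 339.8, 307 and 172 CPM, with knockout values inside the wild-type range.

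Rps27l, a p53-induced relative of Rps27, held 29.8% of the counts of its pair, from 13.8% in knockout mouse 4 to 42.6% in knockout mouse 2. Its level was 192, 111 and 54.1 CPM in knockout and 131, 111, 107 and 138 CPM in the wild type, so that knockout mice held both ends and the log2 fold change was -0.03 (SE 0.36). Rps27 stood in the reverse order among the knockout mice, with 259, 294 and 337 CPM, against 351, 320.4, 227 and 188 CPM in the wild type. Rps4l held 13.3% of the counts shared with Rps4x, the 40S protein of the X chromosome. Its level was 6.34, 12.8 and 18.4 CPM in knockout and 21.5, 45.1, 13.99 and 27.8 CPM in the wild type. Knockout mice 2 and 3 lay below all wild-type mice and knockout mouse 4 above wild-type mouse 7 (log2 fold change -1.12, SE 0.78). Rps4x had 171, 91.5 and 147 CPM and 138, 194, 122 and 103 CPM, with a log2 fold change of -0.03 (SE 0.30).

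The other paralogues were minor. Rpl7l1, a relative of Rpl7 that works in ribosome assembly, held 3.53% of its pair and had 53.5, 43.8 and 26.3 CPM in knockout and 44.4, 52.8, 21.2 and 25.99 CPM in the wild type (log2 fold change 0.19, SE 0.50), while Rpl7 stood at a mean of 1059 CPM (-0.07, SE 0.18). Rpl39l, known from male germ cells, held 2.38% of its pair, and its level was 10.5, 10.98 and 0 CPM in knockout and 0.431, 31.97, 6.14 and 1.86 CPM in the wild type. Most of that came from wild-type mouse 6, and the log2 fold change was -0.50 (SE 1.89). Rpl39, which lies in the exit tunnel, stood at 373 CPM (-0.09, SE 0.23). Rpl22l1, which can replace Rpl22 in the ribosome, held 2.09% and had 15.7, 17.9 and 16.3 CPM and 33.8, 5.52, 23.2 and 22.4 CPM, with wild-type mice at both ends (-0.35, SE 0.82). Rpl22 stood at 911 CPM with a log2 fold change of -0.01 (SE 0.18). Rpl32l held 0.699% of its pair with 62 counts in all, 20, 0 and 0 in knockout and 2, 20, 19 and 1 in wild-type mice, and Rpl32 stood at 149.7 CPM (-0.38, SE 0.30).

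**Figure D4:**
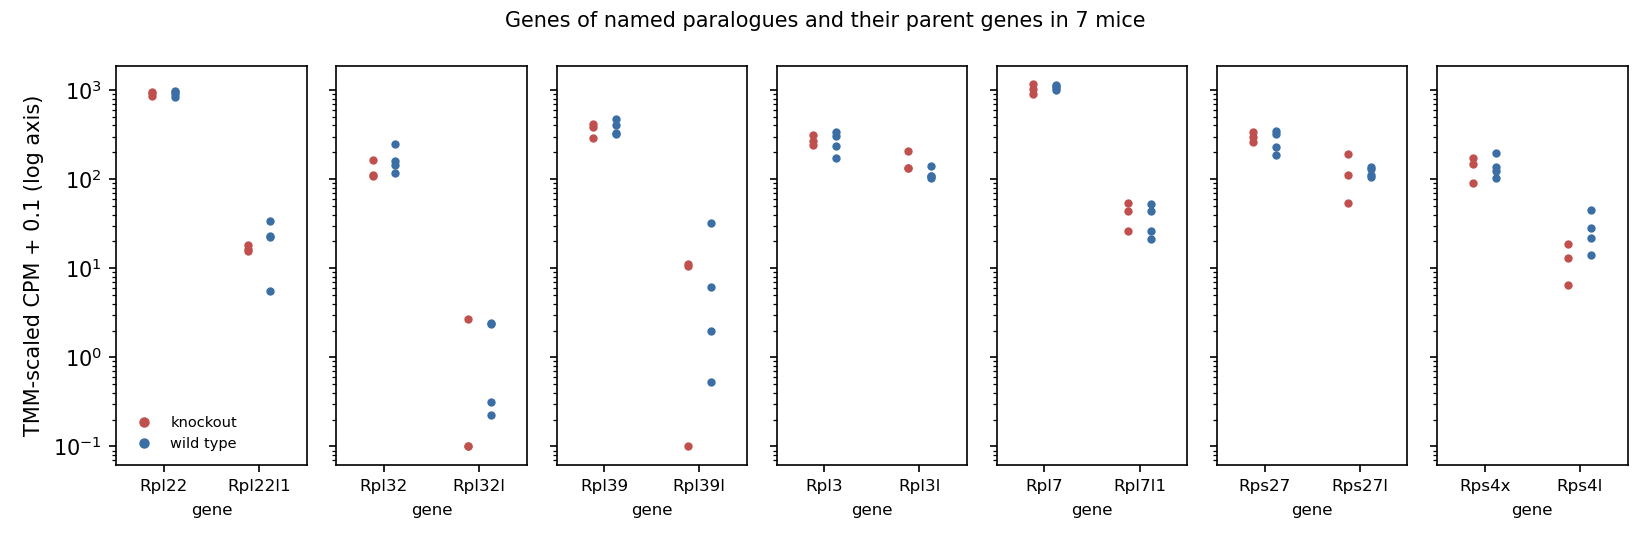
Level in each mouse, in TMM-scaled CPM plus 0.1 on a log axis, of 7 paralogues (right in each panel) and the genes they are named after (left), with knockout and wild-type mice in 2 colours. Rpl3l and Rps27l come close to their partners, while Rpl32l and Rpl39l reach 0 in some mice.

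Rpl32l was the member with the fewest counts (62), just inside the authors' filter. The 5 rows of the pattern that were left out had fewer: Rpl24 had 34 counts (19 in knockout mouse 2 and 15 in wild-type mouse 7), Rps3a2 had 23, Rpl6l had 1, and Rpl10l and Rps12l1 had 0. Rpl24 is a core protein of the 60S subunit. Of proteins of the ribosome outside the pattern, Fau, the fusion gene of Rps30, had 7466 counts and a log2 fold change of -0.08 (SE 0.31), and Rpl36al 702 counts and -1.49 (SE 1.57). A row with few counts shows what was assigned to that gene in this table and not how much of its mRNA the skin held.

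Several core proteins that every ribosome carries had low counts of this kind. Rps6, the 40S protein phosphorylated on growth signals, had 984 counts over the 7 libraries, with 251, 2 and 79 in knockout mice 2, 3 and 4 and 126, 223, 63 and 240 in wild-type mice 5, 6, 7 and 8. Knockout mice thus held both the highest and the lowest count, and the log2 fold change was -0.41 (SE 1.18). Rps10, at the mRNA entry side of the head, had 220, 249 and 0 counts in knockout and 154, 172, 138 and 225 counts in wild-type mice, so that 1 knockout library had none while the other 2 were among the highest. Rpl23a, at the tunnel exit, had 32, 127 and 0 counts in knockout and 24, 68, 24 and 19 counts in wild-type mice, a log2 fold change of 0.65 with a standard error of 2.15. Rps3a3, a copy of Rps3a1, had 7, 0 and 158 and 70, 106, 50 and 50 counts. In all, 79 members had counts in every mouse, and the zeros came from knockout mouse 3 (2 members) and knockout mouse 4 (4 members). A count of 0 allows a level of up to 0.323 to 0.395 CPM, depending on the library, if 3 counts are set as the limit.

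Ribosomal protein genes have many processed pseudogenes, copies of their mRNA inserted back into the genome, and reads that match several copies equally can be assigned to any or to none. The table has 321 rows named -ps after 64 of the members, and 206 of them had counts, 0.281% to 0.409% of each library. For 7 members these rows together held more counts than the gene. Rpl14 had 9104 counts against 28758, Rps10 1158 against 9617, and Rpl10, which completes the 60S subunit, 4689 against 10111. Rpl10-ps3 alone held 10096 of these and Rps10-ps2 7530. The other 4 were Rps6 (984 against 2089), Rpl13a (1693 against 3468), Rpl10a (1964 against 2765) and Rpl7a (9763 against 11562). The levels of these genes are therefore uncertain, more so than those of members with few counted copies. Across the 84 members, which are not independent replicates, the level had a Spearman's rho of -0.04 with the number of -ps rows and of 0.23 with exon length, and how copies bear on the levels was not tested further. Adding the -ps rows to the members gave shares of 4.74% to 5.56% in knockout and 4.30% to 5.63% in wild-type mice.

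**Figure D5:**
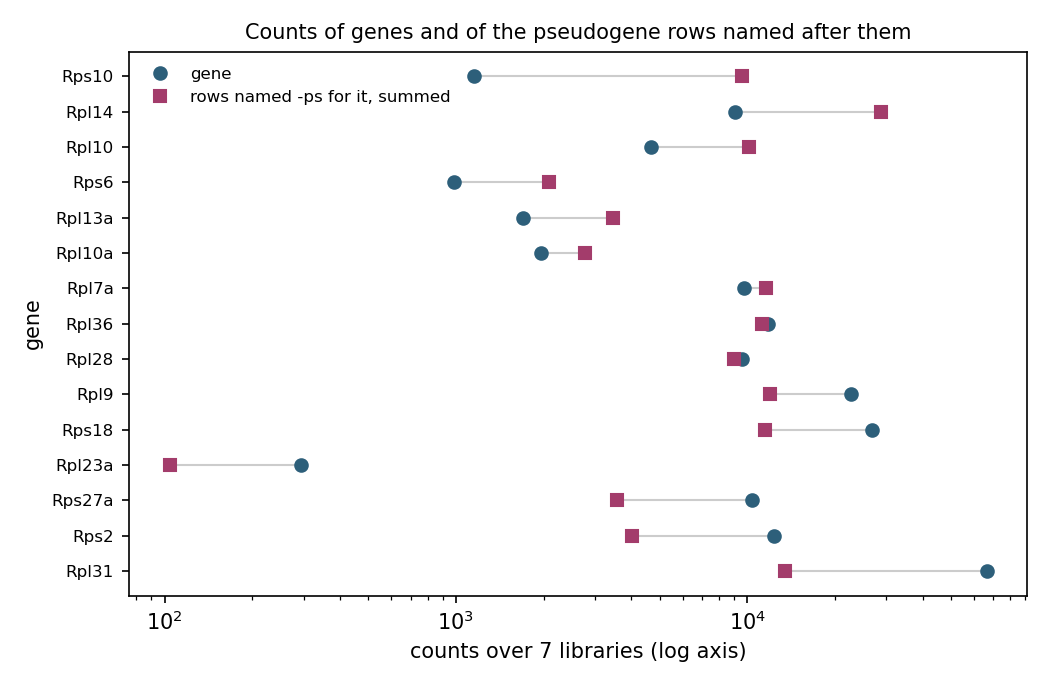
Counts over 7 libraries (log axis) of the 15 members with the highest ratio of -ps counts to their own, for the gene (circles) and for all rows named -ps after it (squares). In 7 genes, Rps10, Rpl14, Rpl10, Rps6, Rpl13a, Rpl10a and Rpl7a, the squares lie to the right of the circles.

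The members lie on 19 chromosomes, with 14 on chromosome 7. Exons of 37 of the 84 overlap exons of another gene on mm39, on the same strand for 26, among them small nucleolar RNA genes, many of which sit inside ribosomal protein genes. For 14 the other gene had counts, among them Rpl18 (Sphk2 on the other strand, 5826 counts), Rpl35 (Arpc5l, 5645 counts against 2678) and Rpl23a (Tlcd1, 1667 counts against 294). Use of strand in counting was not given in the sources used here, so reads at such places could belong to either gene.

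Genes that make, translate or sense ribosomes were not called either, with 0 in each list at an adjusted p below 0.05 by edgeR's quasi-likelihood test with Benjamini-Hochberg adjustment. Of 19 translation factors and other 5′ TOP mRNAs 12 were above and 7 below 0, with a median log2 fold change of 0.12, the opposite sign to the ribosomal protein genes. Eef1b2, an exchange factor of elongation, had 503 ± 81.95 CPM (SD, n = 3) in knockout skin, against 638 ± 46.2 CPM (SD, n = 4), and Npm1, a nucleolar chaperone of ribosome assembly, 209 ± 34.4 and 163 ± 19.5 CPM. Of 45 genes of ribosome biogenesis and RNA polymerase I 23 were above 0 (median 0.03), and of 6 tested chaperones of single ribosomal proteins 3 (median -0.09). Polr1c and Polr1d, subunits that RNA polymerases I and III share, had log2 fold changes of -1.68 (SE 0.91) and 0.61 (SE 0.33). The 72 tested mitochondrial ribosomal protein genes, which serve a separate ribosome, had 35 above 0 and a median of -0.04. The 2 with the smallest p were Mrps7 at -1.14 (SE 0.50) and Mrps6 at -0.77 (SE 0.35). Transcripts of the mitochondrial genome, 13 tested, had 1 above 0 and a median of -0.32.

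Among 14 genes that carry growth signals to ribosomal protein mRNAs, 6 were above 0 and the median was -0.03. The kinase gene Mtor itself had 37.02, 37.7 and 26.4 CPM in knockout mice 2, 3 and 4 and 63.7, 72.9, 83.1 and 49.9 CPM in the wild-type mice 5, 6, 7 and 8. The groups did not overlap, as for 6.89% of all genes, and the log2 fold change of -0.998 (SE 0.37) was not called, with an unadjusted p of 0.0186 by edgeR's quasi-likelihood test. Rps6kb1, the kinase that phosphorylates Rps6, had 30.3, 102 and 40.1 CPM and 22.9, 25.3, 24.9 and 34.4 CPM, with knockout mouse 3 far above the rest and a log2 fold change of 1.10 (SE 0.50). Of 18 tested genes of p53 and its targets, 6 were above 0 (median -0.09). In 3 of the 18, Btg2, Bbc3 and Perp, the groups did not overlap, all lower in knockout mice, against 6.89% of all genes. Perp, chosen after its values were seen, is also 1 of the keratinocyte markers. Cdkn1a, the cell cycle inhibitor induced by p53, had 170.5, 187 and 169 CPM in knockout and 208, 246, 142 and 139 CPM in the wild type (log2 fold change -0.07, SE 0.26). Mdm2 had 111, 177 and 102 CPM and 135, 95.4, 164 and 155 CPM (log2 fold change -0.08, SE 0.29), and for both genes the ranges of the genotypes overlapped. Btg2, an antiproliferative target of p53 that is also one of the immediate early genes, had 51.8, 47.9 and 43.1 CPM in knockout and 303, 180.2, 214 and 64.2 CPM in the wild type, with no overlap and an adjusted edgeR p of 0.329. Bbc3, which promotes cell death, did not overlap either, with 7.25, 0 and 5.26 CPM in knockout and 46.9, 15.3, 27.7 and 19.6 CPM in the wild type. Kitl, the growth factor of melanocytes through which p53 darkens the footpads of Rps19 and Rps20 mutants, had a log2 fold change of 1.66 (SE 1.77), with 32.6, 4.82 and 22.1 CPM in knockout and 0, 4.61, 0 and 20.4 CPM in the wild type.

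Which members separated the groups depended on single mice and, for Rpl3l, on scaling. With libraries scaled by their totals over the genes tested alone, Rpl3l was the 1 member whose groups did not overlap, against 6.86% of all genes. That separation was by a narrow margin. Rpl3l had 1023 of all 7846643 counts in knockout mouse 2 and 1147 of 8768984 in wild-type mouse 7. As shares of all counts these put mouse 7 just above mouse 2, and the groups overlapped. Without knockout mouse 2, the groups did not overlap in 10 members, among them Rpl5, Rpl10, Rpl19, Rpl30, Rpl32, Rpl32l, Rps16 and Rps23, below the 15.7% of all genes that separate in that smaller comparison, and the median change was -0.15. Without wild-type mouse 8 it was 7 members (Rpl4, Rpl11, Rpl21, Rps16, Rps19, Rps24 and Rps27a) against 12% of all genes, with a median of -0.14. Of the 83 or 84 members tested, none was called in any of the 7 comparisons that left out 1 mouse, and their smallest adjusted p was 0.601 (edgeR's quasi-likelihood test). Of all genes tested, only 0 or 1 was called in each of these comparisons.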

How the data were processed

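The deposited table of raw counts gives whole-number counts per gene for 7 libraries of polyadenylated RNA, 1 per mouse, made with the QuantSeq 3′ kit per the labels' protocols. A second deposited table has log2 values, filtered and scaled by the authors, for 12954 genes. Each of its 90678 values equalled, within 1e-09, the log2 CPM that edgeR gives under TMM with a prior count of 2. It served to choose members and as an alternative gene set. Tools named without a role in the submitters' processing notes are edgeR 3.36.0, featureCounts, Subread 2.0.3, GATK 4.2.4.0 and STAR, with the build mm39. Removal of duplicates was not given in the sources used here.

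Raw counts were fitted in edgeR 4.0.16 (R 4.3.3) with filterByExpr at its minimum of 10 counts, which kept 12888 of 19128 genes with any count, TMM factors and the quasi-likelihood F test, adjusted over all genes by Benjamini-Hochberg at 0.05. Standard errors are the fold change over the root of F, and CPM are TMM-scaled. The common biological coefficient of variation was 108%. Alternatives were DESeq2 1.42.0 size factors and its Wald test, limma 3.58.1 voom, TMM factors from non-members, library totals alone, no filter, the authors' gene set, and leaving out each mouse. Library totals in that alternative are sums over the genes tested, not over all counts. The fit was tested on simulated data. Members, lists and tests were chosen with earlier results of these data known. Genes named with values are the 4 highest members of each subunit, the 4 with the smallest p in each direction, paralogues with their partners, the 3 lowest members, and Rpl5, Rpl11, Rpl27a, Rpl38, Rps19 and Rps20. From the pathway lists, genes with the smallest p and p53 targets are named, not all that the rule allows. Others are marked, and some genes are not reported here. No value is adjusted over the list alone. RefSeq windows are of GRCm38.p6 and were matched by symbol.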

Additional observations from a re-analysis of the deposited data

Results flagged for a closer look

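In 60 groups of 4 wild-type values that were examined for a mouse standing apart (Dixon's gap to range, 95% critical value), 2 did, where chance gives about 1 in 20. Rpl23a stood at 7.65 CPM in wild-type mouse 6 and at 2.35 to 2.95 CPM in the other 3 wild-type mice, on 68 counts against 19 to 24. Rpl3l stood at 140.8 CPM in wild-type mouse 7 and at 104 to 109 CPM in the other 3.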

How the results depend on the processing

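No member was called under any alternative. Over all genes the number called ran from 0, as without wild-type mouse 5, to 123 with DESeq2's Wald test. The median change of members stayed below 0 in all alternatives, from -0.15 to -0.03, and 45 to 64 members lay below 0. The median over all genes moved as well, from -0.05 without knockout mouse 2 to 0.05 with library totals alone. Without knockout mouse 3 the median was -0.03 for members and -0.02 for all genes, with 45 of 84 members below 0. Members whose groups did not overlap numbered 1 (Rpl3l, by a narrow margin) with library totals over the genes tested alone, against 6.86% of all genes. They numbered 0 to 10 when a mouse was left out, against 11.01% to 15.7%. The difference in share of counts ran from -0.248 to 0.201 percentage points when a mouse was left out, within 1 SD, and the difference in large to small subunit ratio between -0.0456, where knockout mouse 2 was left out, and 0.00595, where it was knockout mouse 4. Of 34 named members 17 kept 1 sign throughout and 17 did not; the cause was not tested. With library totals alone the log2 fold change was 0.0456 for Rpl22, 0.0019 for Rps27l and 0.0209 for Rps4x; with DESeq2 size factors it was 1.09e-05 for Rpl22, with no filter -0.00092 for Rpl38, and with limma-voom -1.11 for Rpl23a. When a mouse was left out it ran from -0.0651 to 0.0236 for Rpl22, -0.90 to 1.23 for Rpl23a, -0.19 to 0.0891 for Rpl27a, -0.10 to 0.19 for Rpl3, -6.40 to 0.0756 for Rpl32l, -0.24 to 0.0482 for Rpl37, -0.10 to 0.0498 for Rpl38, -0.20 to 0.0428 for Rpl39, -0.94 to 1.34 for Rpl39l, -0.18 to 0.00984 for Rpl7, -0.0455 to 0.43 for Rpl7l1, -0.0556 to 0.0490 for Rplp1, -0.12 to 0.24 for Rps26, -0.0141 to 0.27 for Rps27, -0.56 to 0.31 for Rps27l, -4.10 to 0.44 for Rps3a3 and -0.23 to 0.19 for Rps4x. Rpl32l had values in 5 of these 7 fits. No paired analysis was possible because the groups share no mouse numbers. For members under 100 CPM, with a median standard error of 0.72, and most of all for those under 20 CPM, the standard errors limit what could be seen at this depth.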
